A study of Mus musculus with 30 samples.

Results

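Interferon-stimulated genes were examined in 3 tissues, liver, kidney and brain, of 10 male mice at day 22. They were chosen by name as 9 genes, Irf7, Usp18, Oas1a, Oasl2, Rsad2, Ifit1, Ifit3, Isg15 and Ifi44, and every probe set that the platform annotation gives to one of these symbols alone was taken. This yielded 7 genes and 9 probe sets, of 18193 genes and 45037 probe sets in all, with 3 probe sets for Rsad2 and 1 for each other gene. Isg15 shared its only probe set with Gm9706 and was not counted, and Ifi44 was not named for any probe set. The mice carried the viable yellow allele of agouti, Avy, opposite the nonagouti allele a, and all came from 1 sibling-mated colony kept heterozygous for Avy, so no mouse without Avy was among them. In Avy a retrotransposon can drive agouti in many tissues, and the coat runs from yellow to pseudoagouti, which resembles the wild-type agouti coat. There were 2 mice, numbered 1 and 2, in each of 5 classes of coat, which run from yellow over slightly mottled, mottled and heavily mottled to pseudoagouti, and 1 array per mouse and tissue on Affymetrix Mouse Genome 430 chips, 30 arrays in all.

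Interferon-stimulated genes are the genes that cells switch on after type I or type III interferon binds its receptor. The receptor kinases activate a complex that holds Stat2 and Irf9 and binds a short DNA element, the interferon-stimulated response element, in front of these genes. Irf7 is a transcription factor that amplifies interferon production, Usp18 removes the ubiquitin-like Isg15 from proteins and damps receptor signalling, and the other genes studied act on viral RNA or on viral replication. Uninfected tissues express them at a basal level that differs between cell types.

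The 250 bases before the annotated start of 4 of the genes are shown because they hold the core of that element, a feature that the choice of genes by name did not use. The sequences are RefSeq's on build GRCm38.p6, read 5′ to 3′ on the strand of the gene, and the capitals mark every match to GAAANNGAAA or its reverse complement TTTCNNTTTC, joined where matches overlap.
Ifit1 (chr19:34640639-34640888, plus strand): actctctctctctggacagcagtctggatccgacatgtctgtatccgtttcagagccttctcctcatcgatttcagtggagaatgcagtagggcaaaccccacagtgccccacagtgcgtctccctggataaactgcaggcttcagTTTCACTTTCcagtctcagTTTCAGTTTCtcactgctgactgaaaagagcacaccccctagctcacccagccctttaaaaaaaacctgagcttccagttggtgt
Ifit3 (chr19:34583279-34583528, plus strand): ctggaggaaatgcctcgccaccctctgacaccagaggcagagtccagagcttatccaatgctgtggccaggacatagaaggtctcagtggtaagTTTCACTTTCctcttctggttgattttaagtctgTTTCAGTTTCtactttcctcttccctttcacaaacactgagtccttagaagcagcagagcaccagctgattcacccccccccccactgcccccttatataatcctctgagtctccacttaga
Rsad2 (chr12:26456453-26456702, minus strand): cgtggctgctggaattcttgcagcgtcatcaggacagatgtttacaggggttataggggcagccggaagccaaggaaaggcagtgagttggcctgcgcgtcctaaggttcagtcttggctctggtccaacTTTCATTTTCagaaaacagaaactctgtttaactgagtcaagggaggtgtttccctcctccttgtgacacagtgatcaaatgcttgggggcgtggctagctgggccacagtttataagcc
Oas1a (chr5:120907526-120907775, minus strand): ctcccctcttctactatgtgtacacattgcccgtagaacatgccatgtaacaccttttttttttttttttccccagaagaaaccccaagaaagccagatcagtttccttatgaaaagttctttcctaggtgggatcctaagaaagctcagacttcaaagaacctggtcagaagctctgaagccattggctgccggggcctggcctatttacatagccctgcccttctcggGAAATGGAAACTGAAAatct
Ifit1 and Ifit3 each held 2 separate stretches, TTTCACTTTC farther from the start and TTTCAGTTTC nearer to it. They began 104 and 85 bases before the start of Ifit1 and 156 and 122 bases before that of Ifit3. Rsad2 held 1 match, 120 bases before its start, and Oas1a 2 overlapping matches in 1 stretch 20 bases before its start. Isg15 had a stretch 78 bases before its start, so that 5 of the 8 genes with a promoter in the RefSeq table held the motif, against 978 of 32851 promoters of the same length (2.98%). Irf7, Oasl2 and Ifi44 held none in these 250 bases, and Usp18 is named only. A match describes the letters and is not a test of binding.

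Signals were MAS5 values, which the authors computed per probe set on a linear scale and which had been scaled to a trimmed mean of 500 on each array. Array medians ran from 105.2 up to 144.6 (liver), 152.6 (kidney, from 114.3) and 205.3 (brain, from 138.2), and the number of arrays limits the precision of every value. No pair of arrays was identical. Marker genes fitted the tissue labels, with 7 of 7 liver markers higher in liver than in kidney and than in brain, 7 of 7 kidney markers higher in kidney than in brain, and 8 of 8 brain markers lower in kidney than in brain. The agouti gene a fell along the coat scale in kidney by 0.65 log2 per step (SE 0.078, limma adjusted p = 0.0353). Its slope was -0.35 in liver (SE 0.11, limma unadjusted p = 0.00582) and -0.43 in brain (SE 0.084, limma unadjusted p = 0.00021). After adjustment it was called in neither liver nor brain. The main spread of the arrays ran with the mouse number. With tissue means removed, 18.2% of the variance lay on a first principal component that put number 1 and number 2 liver arrays on opposite sides. In kidney mottled 1, and in brain mottled 1 and heavily mottled 1, lay with the number 2 arrays. Numbers are balanced over coat classes, and the labels do not say what they stand for. Steps below that remove, block on or split by the number keep mottled 1 and heavily mottled 1 as number 1 in every tissue. In kidney and brain such steps therefore do not take out the whole of this spread.

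Of 21 tissue differences, 3 for each of 7 genes, 15 were called. The 7 genes were all higher in kidney than in brain, 5 of 7 were higher in liver than in brain, and liver and kidney differed gene by gene, with Usp18 higher and Rsad2 and Ifit3 lower in liver. Tissues were compared within mice by limma on log2(signal + 16), and a call needed an adjusted p under 0.05 together with an absolute log2 difference of 1 or more. The background was 20.8% of 22519 tested probe sets called higher in kidney than in brain, 20.5% higher in liver than in brain, 9.87% higher in liver than in kidney and 18.6% lower in liver than in kidney. Lower calls against brain took 30.3% of probe sets for liver and 22% for kidney. The median log2 difference was 1.86 over the 7 genes and 0.03 over all probe sets for kidney minus brain, 1.56 and -0.15 for liver minus brain, and -0.35 and -0.13 for liver minus kidney. A probe set was tested if its highest tissue mean reached 251.77, and 6 of the 7 genes had a brain mean below that value, so they passed through liver or kidney and their count against brain is a description. In such bulk samples fewer cells of a type and less RNA per cell cannot be told apart.

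**Figure D1:**
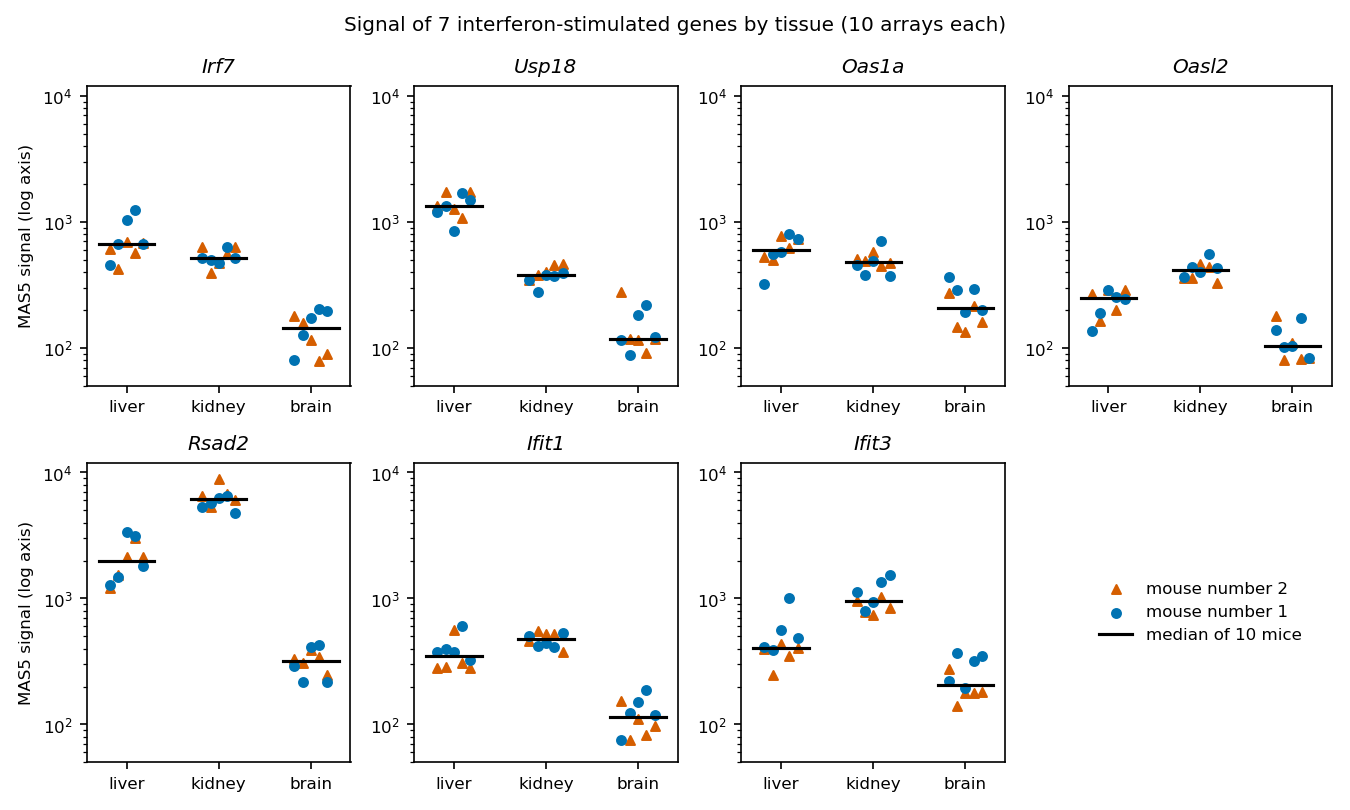
MAS5 signal (log axis) of 7 interferon-stimulated genes in liver, kidney and brain, 1 point per array, with triangles for number 2 mice, circles for number 1 mice and a line at the median of 10. Usp18 is highest in liver, Rsad2 and Ifit3 are highest in kidney, and the brain medians, 102.85 to 318, are the lowest of the 3 tissues for each gene.

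Among the regulators, Irf7 had a median signal of 671.65 in liver (424.9 to 1239.8), 516.8 in kidney (392 to 633.8) and 143.5 in brain (79.2 to 204.6). The brain arrays all lay below those of both other tissues, while liver and kidney overlapped. Irf7 was 4.59-fold higher in liver than in brain (log2 difference 2.20 ± 0.15, SE, n = 10 mice, limma adjusted p = 3.68e-13) and 3.62-fold higher in kidney than in brain (1.86, adjusted p = 1.51e-11). The difference of liver minus kidney was 0.34 ± 0.15, with 8 of 10 mice higher in liver, and was under the size threshold.

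Usp18 was highest in liver. Its median signal was 1345.1 in liver (850.5 to 1744.2), 378.2 in kidney (280.2 to 462.9) and 117.75 in brain (88 to 278.1). No liver array overlapped another tissue, and the lowest kidney array lay just above the highest brain array, that of yellow 2. Usp18 was 3.45-fold higher in liver than in kidney (log2 difference 1.79 ± 0.15, limma adjusted p = 1.34e-10), 8.98-fold higher in liver than in brain (3.17, adjusted p = 4.35e-16) and 2.60-fold higher in kidney than in brain (1.38, adjusted p = 9.22e-09), each in 10 of 10 mice.

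The oligoadenylate synthetase family senses double-stranded RNA. Oas1a makes the second messenger that activates RNase L, and Oasl2 is a relative in the same family. Oas1a had a median signal of 600.45 in liver (323.6 to 805.1), 480.3 in kidney (374.2 to 702.3) and 207.2 in brain (133.4 to 366.8). Its kidney and brain arrays did not overlap, but the liver of yellow 1, at 323.6, lay below the brain of the same mouse, at 366.8, so that 9 of 10 mice were higher in liver than in brain. Oas1a was 2.64-fold higher in liver than in brain (log2 difference 1.40 ± 0.17, limma adjusted p = 2.99e-08) and 2.14-fold higher in kidney than in brain (1.10 ± 0.17, adjusted p = 1.84e-06). That last difference was 0.95 with an offset of 64 in place of 16 and 0.998 without mottled 2, under the size threshold in both cases. Liver minus kidney was 0.30 ± 0.17 (adjusted p = 0.113).

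Oasl2 ran in another order, with a median of 248.3 in liver (136 to 290.6), 418.6 in kidney (326.4 to 556.7) and 102.85 in brain (81 to 180.6). The kidney arrays lay above all others, and liver and brain overlapped. The brain mean of Oasl2, 113.73, lay below the median of every brain array. Oasl2 was 3.40-fold higher in kidney than in brain (log2 difference 1.77 ± 0.14, limma adjusted p = 2.48e-11). Liver minus kidney was -0.82 ± 0.14 (adjusted p = 1.79e-05, lower in liver in 10 of 10 mice) and liver minus brain 0.95 ± 0.14 (adjusted p = 1.36e-06, 9 of 10 mice higher in liver), both under the size threshold. The second passed it with an offset of 1 (1.04), with quantile normalisation over all arrays (1.31) and without yellow 1 (1.05).

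Rsad2 encodes viperin, an enzyme known in human cells to make a nucleotide that stops viral RNA synthesis. Its difference between kidney and brain was the largest of the 7 genes. At its strongest probe set the median signal was 1971.7 in liver (1219.4 to 3377.8), 6155.45 in kidney (4790.1 to 8906.4) and 318 in brain (216.3 to 426.9), and no array of a tissue overlapped another tissue. Rsad2 was 18.8-fold higher in kidney than in brain (log2 difference 4.23 ± 0.12, limma adjusted p = 1.79e-20), 6.14-fold higher in liver than in brain (2.62, adjusted p = 1.97e-16) and 3.06-fold lower in liver than in kidney (-1.61, adjusted p = 1.14e-11). The other 2 probe sets of Rsad2 gave the same calls, with log2 differences of 3.23 and 4.06 for kidney minus brain, 1.74 and 2.36 for liver minus brain, and -1.50 and -1.71 for liver minus kidney.

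Ifit1 and Ifit3 encode tetratricopeptide repeat proteins, and Ifit1 captures viral RNA by its foreign end. Ifit3 had a median signal of 407.65 in liver (248.3 to 1007.1), 952.85 in kidney (739.6 to 1536.5) and 207.25 in brain (139.5 to 369.8). Kidney and brain were apart, whereas liver overlapped both, with the liver of heavily mottled 1 alone reaching kidney levels. Ifit3 was 2.19-fold lower in liver than in kidney (log2 difference -1.13 ± 0.13, limma adjusted p = 3.93e-08, lower in 10 of 10 mice) and 4.07-fold higher in kidney than in brain (2.02 ± 0.13, adjusted p = 3.25e-13). Liver minus brain was 0.89 ± 0.13, under the size threshold. Quantile normalisation over all arrays, which moved the median of all probe sets to -0.04, 0.05 and 0.10 in liver minus kidney, liver minus brain and kidney minus brain, brought liver minus kidney to -0.89 and liver minus brain to 1.26, so that the first call of Ifit3 was lost and the second gained. Ifit3b, a close copy of Ifit3, is not told apart from it here.

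Ifit1 had a median of 349.65 in liver (279.3 to 601.9), 480.65 in kidney (378 to 550.5) and 115.55 in brain (75.9 to 186.9). All brain arrays were below all others, and liver and kidney overlapped. The brain mean of Ifit1, 117.79, lay below the median of every brain array. Ifit1 was 2.95-fold higher in liver than in brain (log2 difference 1.56 ± 0.15, limma adjusted p = 2.57e-10) and 3.77-fold higher in kidney than in brain (1.91 ± 0.15, adjusted p = 5.95e-12). Liver minus kidney was -0.35 ± 0.15. The probe set shared by Isg15 and the pseudogene Gm9706 had a median of 319.3 in liver (210 to 695.2), 315.85 in kidney (202.9 to 388.9) and 103.5 in brain (72.3 to 176.3).

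Other genes that interferon induces were set beside the members. Of 52 tested genes of a list of 69, liver exceeded brain for 43 (20.5% of all probe sets) and was below it for 2 (30.3%), kidney exceeded brain for 42 (20.8%) and was below it for 1 (22%), and liver exceeded kidney for 17 (9.87%) and was below it for 4 (18.6%). Their median log2 differences were 2.24, 1.79 and 0.27. Of the 52, 36 had a brain mean below the filter and passed through liver or kidney, so the counts against brain are a description. Of 13 genes that did not pass, 11 had a higher mean in liver than in brain and 6 a higher mean in kidney than in brain. Iigp1, a GTPase that acts on the vacuoles of intracellular parasites, averaged 15512 in liver, 1248.3 in kidney and 248.15 in brain, and was 12.2-fold higher in liver than in kidney and 60.9-fold higher in liver than in brain. Cxcl9, a chemokine that draws T cells, averaged 376.46 in liver and 32.23 in kidney, the second below the median of every kidney array. The virion tether Bst2 was 5.41-fold higher in liver than in kidney. The membrane proteins Ifitm2 and Ifitm3, which block entry of viruses, were 32.0-fold and 22.1-fold higher in liver than in brain. Ifi27l2a averaged 956.19 in kidney and 39.2 in brain, the second below the median of every brain array, and the ubiquitin ligase Trim25 was 10.4-fold higher in kidney than in brain.

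**Figure D2:**
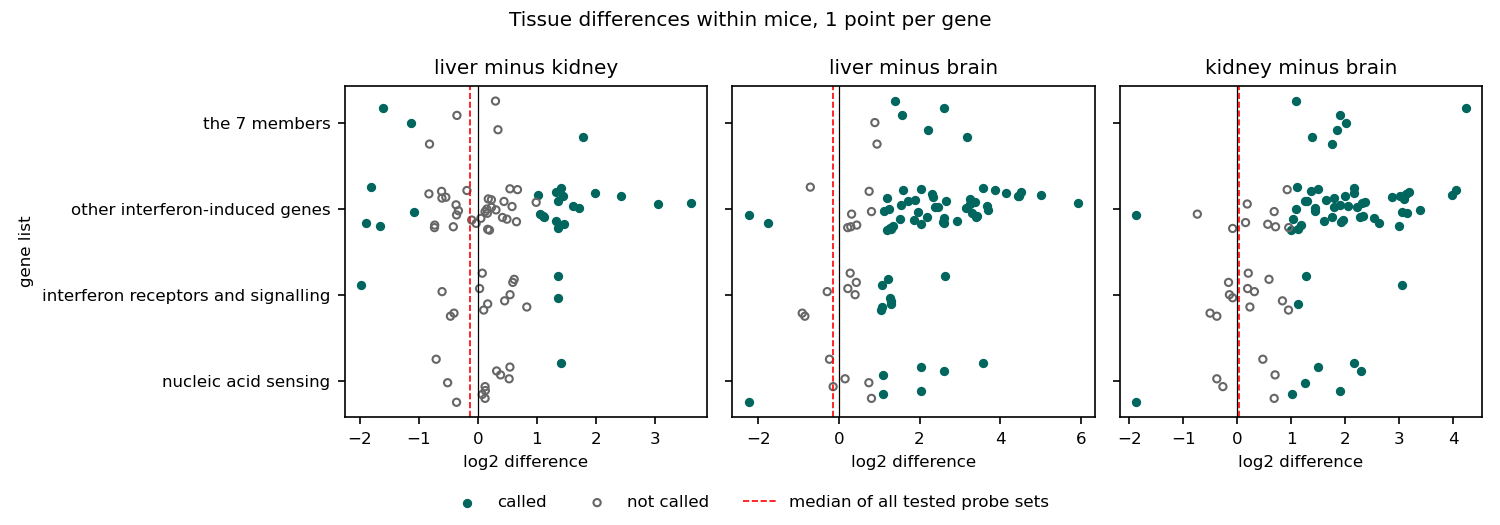
Log2 differences within mice for liver minus kidney, liver minus brain and kidney minus brain, 1 point per gene in 4 gene lists, filled where called, with a dashed line at the median of all tested probe sets. In kidney minus brain the 7 members are all filled and lie at 1.10 to 4.23, and in liver minus kidney they spread from -1.61 to 1.79.

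Of the interferon genes themselves 10 of 21 had a probe set of their own and 1, Ifna2, passed the filter. Its mean signal was 376 in liver, 46.83 in kidney and 82.24 in brain. It was called higher in liver than in kidney (limma log2 difference 2.59, higher in 9 of 10 mice) and than in brain (2.17). Ifna2 passed the filter through liver alone, so these calls are a description. Its kidney and brain means lay below the median of every array of their tissue. Interferon alpha genes are also close copies that a probe set may not separate. Of 15 tested receptor and signalling genes, liver exceeded brain for 8 (20.5% of all probe sets) and was below it for 0 (30.3%). Kidney exceeded brain for 3 (20.8%, a like share) and was below it for 0 (22%). Liver exceeded kidney for 2 (9.87%) and was below it for 1 (18.6%). Of the 15, 4 had a brain mean below the filter and passed through liver or kidney, so their calls against brain are a description. The receptor subunit Ifnar2 had a mean of 2380.3 in liver, 910.92 in kidney and 365.69 in brain, and Stat2 of 535.94, 192.02 and 210.83 in the same order. Il10rb, the receptor chain used by type III interferon, was 3.94-fold lower in liver than in kidney. Of 12 tested genes that sense nucleic acids, liver exceeded brain for 6 (20.5% of all probe sets) and was below it for 1 (30.3%). Kidney exceeded brain for 6 (20.8%) and was below it for 1 (22%). Of these 12, 5 had a brain mean below the filter, and their calls against brain are likewise a description. The RNA sensor Ifih1 was 11.8-fold higher in liver than in brain, and the one lower in both was Adar, the RNA editing enzyme, 4.70-fold lower in liver and 3.66-fold lower in kidney than in brain. Ifih1, Adar and Stat2 also stand in the list of interferon-induced genes.

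Markers of immune cells were measured beside these genes. Of 16 tested lymphoid and myeloid markers, liver exceeded kidney for 7 (9.87% of all probe sets) and was below it for 0 (18.6%), and liver exceeded brain for 6 (20.5%) and was below it for 3 (30.3%). Kidney exceeded brain for 3 (20.8%) and was below it for 3 (22%), shares near those of all probe sets. Of the 16, 5 had a brain mean below the filter, and their calls against brain are a description. The kidney means of Clec4f, Marco, Aif1 and P2ry12 (50.41, 40.68, 98.08 and 49.11) were also below the filter. Their calls higher in liver than in kidney are likewise a description. A further 11 markers did not pass the filter. Clec4f, the receptor that marks liver Kupffer cells, had a mean of 3749.3 in liver, 50.41 in kidney and 36.91 in brain, whereas the microglial P2ry12 averaged 141.26 over livers, 49.11 over kidneys and 1178.6 over brains. The signals of 27 such markers summed to 17528 to 23449 per liver, 8547.4 to 14531 per kidney and 10855 to 16710 per brain. The part of these cells in the tissue differences of the 7 genes was not tested.

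Along the coat scale no member changed by the test. The slope was fitted over 10 mice per tissue, in log2 per step, on a scale of 0 for yellow to 4 for pseudoagouti. In limma 0 of 7 members were called in liver, kidney or brain, against 0%, 0.00444% and 0% of all tested probe sets, and the adjusted p was 1 for each member. At an unadjusted p under 0.05 limma had 2 of 7 members in liver and none in kidney or brain, against 2.37%, 2.06% and 1.44% of probe sets. In liver 7 of 7 slopes were above 0, against 47.4% of all probe sets, with a median of 0.12 per step. These 7 slopes come from the same 10 livers and the members covary, so they are not independent results. The median slope was 0.04 in kidney, with 6 of 7 above 0, and -0.03 in brain, with 3 of 7.

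**Figure D3:**
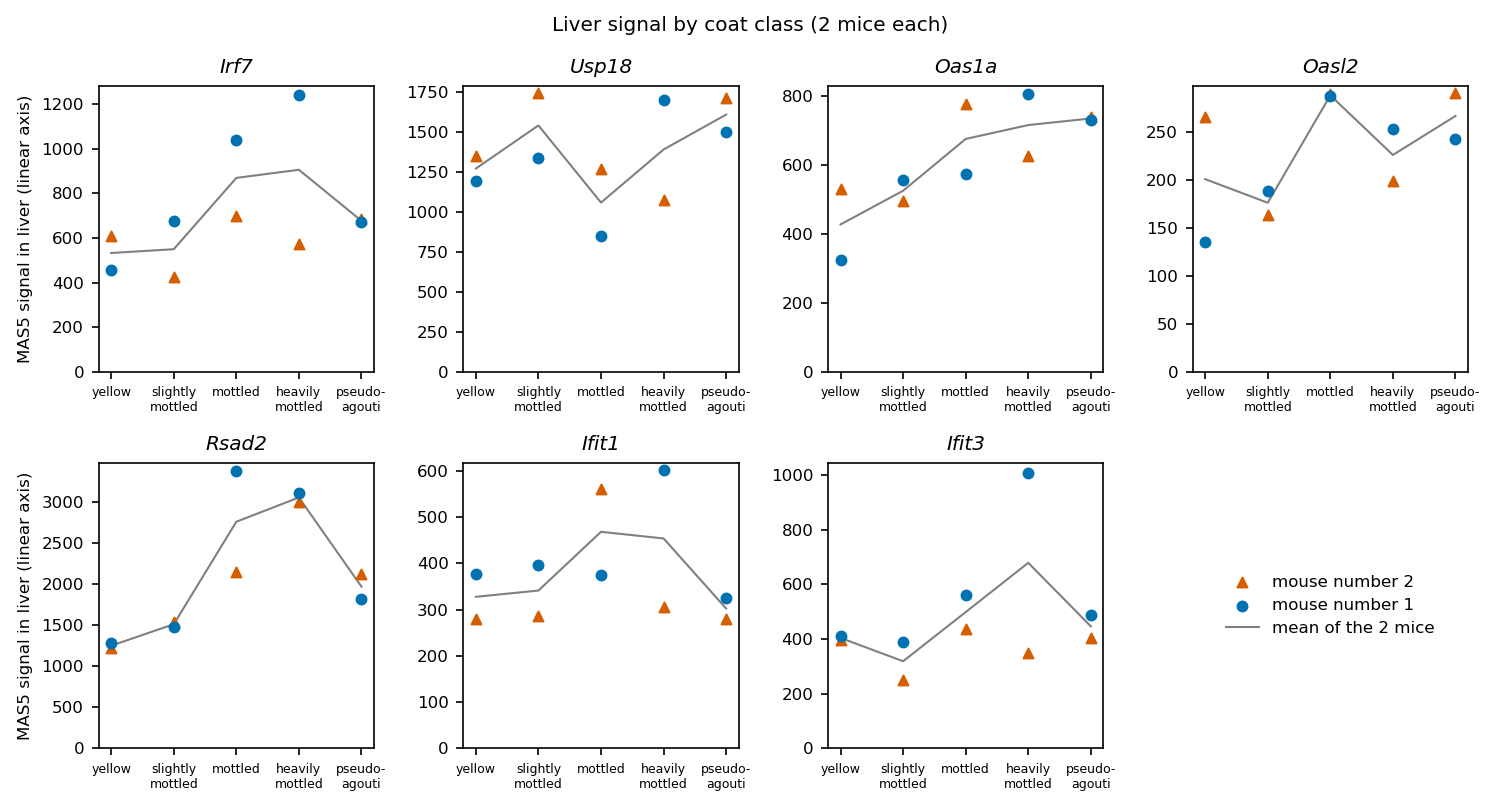
MAS5 signal in liver (linear axis) by coat class in the order yellow to pseudoagouti, 2 mice per class, triangles for number 2, circles for number 1, and a line through the class means. Oas1a class means climb from 427.45 in yellow to 734.95 in pseudoagouti mice, while Rsad2, at its strongest probe set, peaks at 3059 in heavily mottled mice.

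Oas1a had liver signals, in mice 1 and 2 of each class, of 323.6 and 531.3 in yellow, 555.2 and 495.5 in slightly mottled, 574.2 and 776.9 in mottled, 805.1 and 626.7 in heavily mottled and 731.7 and 738.2 in pseudoagouti mice. Both pseudoagouti livers exceeded both yellow ones, and the class means were higher at each step toward pseudoagouti. The slope was 0.20 ± 0.059 (SE, n = 10, limma unadjusted p = 0.00472, adjusted p = 1), and it lay between 0.14 and 0.24 with each mouse left out in turn.

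Rsad2 had liver signals of 1283.7 and 1219.4 in yellow, 1484.1 and 1542.4 in slightly mottled, 3377.8 and 2148.7 in mottled, 3111.5 and 3006.5 in heavily mottled and 1820.6 and 2122.8 in pseudoagouti mice. At this strongest probe set the yellow and slightly mottled livers were the 4 lowest, and the pseudoagouti ones lay in the middle. At each of the other 2 a yellow liver exceeded that of mottled 2 (yellow 2 at 689.5 against 669.2, and yellow 1 at 386.1 against 273.1). The slope was 0.23 ± 0.084 (limma unadjusted p = 0.0172, adjusted p = 1), and 0.21 and 0.17 at the other 2 probe sets (unadjusted p = 0.126 and 0.0974).

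The other liver slopes were 0.13 ± 0.087 for Irf7, 0.12 ± 0.075 for Oasl2, 0.12 ± 0.099 for Ifit3, 0.05 ± 0.069 for Usp18 and 0.01 ± 0.084 for Ifit1 (SE, n = 10). The highest class mean was that of heavily mottled mice for Irf7 (905.2) and Ifit3 (678.25), of mottled mice for Oasl2 (288.55) and Ifit1 (468.15), and of pseudoagouti mice for Usp18 (1609.9). The slope of Ifit1 turned below 0 without yellow 2, slightly mottled 2 or heavily mottled 1. The test of a difference of slopes between tissues called 0 of 7 members and 0% of probe sets in limma, with an unadjusted p of 0.00171 for Rsad2, 0.0128 for Oas1a and 0.0384 for Oasl2, and 2.41% of probe sets under 0.05. Of the 52 other interferon-induced genes 0 were called, 38 had a liver slope above 0 (47.4% of all probe sets), and the median was 0.04. Their slopes rest on the same livers and are not independent of each other. At an unadjusted p under 0.05 limma had 2 of the 52, against 2.37% of probe sets. They were Trim25 at 0.12 per step and the exonuclease Isg20 at 0.23 per step. In kidney, liver markers summed to 8772.8 to 22551, highest in yellow 2. Of these 7 markers, 5 were below an unadjusted p of 0.05 for the kidney coat slope in limma, against 2.06% of probe sets. After adjustment 0 of 7 were called. Their median slope was -0.68, and their part in the kidney slopes of the members was not tested.

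Several of these genes were high in the same livers. The liver of heavily mottled 1 was the highest of 10 for Irf7, Oas1a, Ifit1 and Ifit3, 4 of 7 members, against 11% of probe sets. Mottled 1 and heavily mottled 1 were the top 2 livers for Irf7 (1040.8 and 1239.8), Rsad2 (3377.8 and 3111.5) and Ifit3 (560.6 and 1007.1), 3 of 7 members, against 5.62% of probe sets. The same mice were the top 2 for 0 of 7 members in kidney, against 2.88%, and for 1 of 7 in brain, against 10.7%. Mottled 1 and heavily mottled 1 were singled out with results of these data known, so counts for them are a description. In liver Usp18 did not share this, since mottled 1 had its lowest liver signal, 850.5. In kidney heavily mottled 1 was highest for 3 of 7 members (Oas1a, Oasl2 and Irf7), against 13.9% of probe sets, and in brain for 3 of 7 (Rsad2, Ifit1 and Irf7), against 18.8%. In the liver of heavily mottled 1 the summed signal was also the highest for the lymphoid and myeloid markers (23449, with 22392 in mottled 1 and a median of 20306) and for 3 blood and erythroid markers (11741, with 11138 in mottled 1 and a median of 5278). Alas2, the heme synthesis enzyme of red cell precursors, made up most of the blood sum. Cd3e, of the T cell receptor complex, had 37.3 to 117.5 in liver. In the kidney of heavily mottled 1 the sum of 7 kidney markers was the highest (168670, median 108640), and in its brain that of 7 endothelial markers (2999.1, with 2879 in mottled 1 and a median of 2153.3), while its lymphoid and myeloid sum in brain was 13554 against a median of 13827. The part of these cells in the high arrays was not tested.

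**Figure D4:**
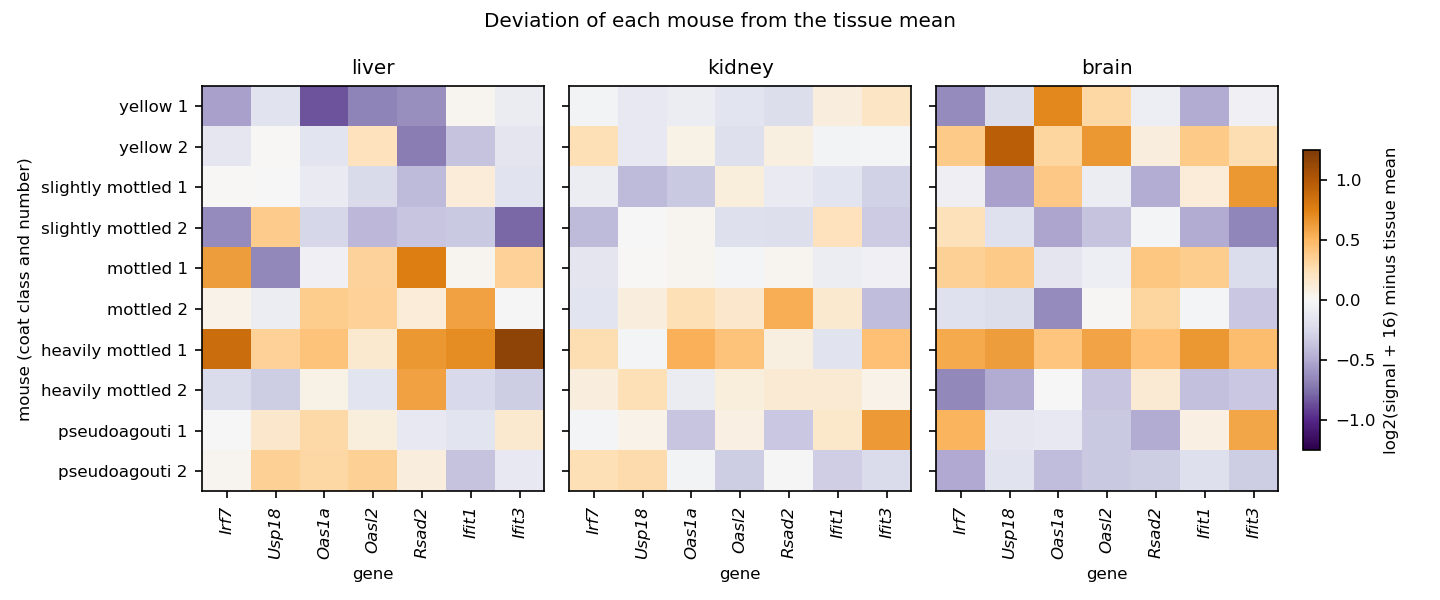
Deviation of log2(signal + 16) from the tissue mean for 10 mice (vertical axis, from yellow to pseudoagouti) and 7 genes in liver, kidney and brain, orange above and purple below the mean. Heavily mottled 1 is above the mean for the 7 genes in liver and in brain, and the SD over mice is lowest in kidney for each gene.

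The SD of log2(signal + 16) over 10 mice was 0.33 to 0.53 over livers for the 7 genes. Over kidneys it was 0.18 to 0.34, and over brains 0.34 to 0.49. The SD was lowest in kidney for each gene, and the difference in spread was not tested.

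Covariation between members was described by correlations of log2(signal + 16) over 10 mice, 21 pairs per tissue and 63 in all, with permutation tests adjusted over the 63. The median Pearson r was 0.446 in liver (-0.314 to 0.89, 16 of 21 above 0), 0.101 in kidney (-0.624 to 0.605, 15 above 0) and 0.449 in brain (-0.353 to 0.753, 18 above 0). Without mottled 1 and heavily mottled 1 the medians were 0.307, 0.105 and 0.285 in the same order, and without heavily mottled 1 alone the brain median was 0.284. The kidney median was 0.185, 0.177 and 0.223 without slightly mottled 2, mottled 2 or pseudoagouti 2. With the mean of each mouse number removed the medians were 0.517, 0.135 and 0.392. In kidney and brain this step does not take out the whole main spread, since arrays labelled number 1 lay there with number 2. Within number 2 they were 0.392, 0.084 and 0.618, and within number 1 0.632, 0.326 and 0.235, over 5 mice each. All arrays of a tissue share the scaling of their array across genes, which these values do not separate.

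Of the 63 pairs 1 passed, Irf7 with Ifit3 in liver, with Pearson r of 0.89 (permutation p = 0.00068, adjusted p = 0.0428). Spearman's rho was 0.758 (permutation p = 0.0147, adjusted p = 0.231), and r was 0.722 without heavily mottled 1 and slightly mottled 2, the 2 mice farthest from the median of Irf7. Within number 2 r was 0.984 and within number 1 0.841, and it was 0.703 without mottled 1 and heavily mottled 1. In kidney and brain the same pair had r of 0.399 and 0.449.

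The next pair in liver was Oas1a with Oasl2, with r of 0.784 and rho of 0.673 (permutation p = 0.00672 and 0.0392, adjusted p = 0.194 for r), and r of 0.595 without yellow 1 and heavily mottled 1. Ifit1 and Ifit3, whose promoters hold the 2 similar stretches shown above, had r of 0.694 in liver (permutation p = 0.0214), 0.084 in kidney and 0.609 in brain. The liver value was 0.253 without the 2 extreme mice, 0.387 without mottled 1 and heavily mottled 1, and 0.622 with the mouse number removed. Leaving out extreme mice narrows the range and can lower r by itself. Usp18 had a median r of -0.044 to the other 6 members in liver and 0.584 in brain. Without its own 2 extreme mice, mottled 1 and slightly mottled 2 in liver and yellow 2 and heavily mottled 1 in brain, these medians were 0.552 and 0.294, so both changed with the choice of mice. Irf7 had a median of 0.651 in liver, and 0.568 without heavily mottled 1 and slightly mottled 2.

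**Figure D5:**
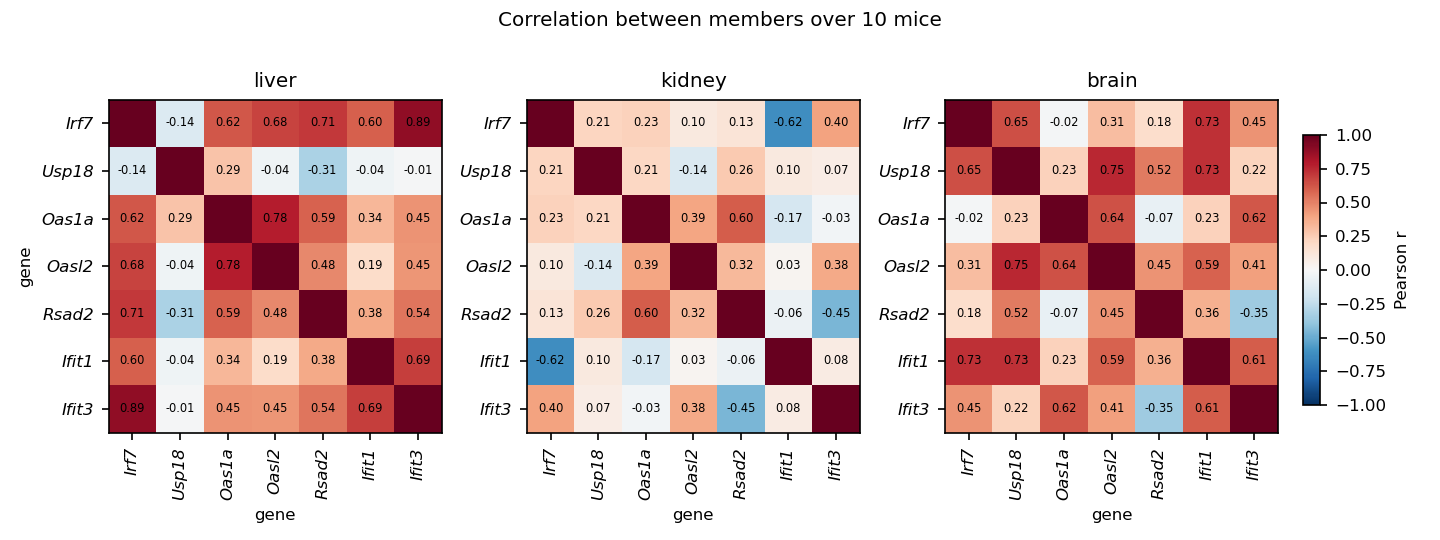
Pearson correlations between the 7 genes over 10 mice in liver, kidney and brain, red above and blue below 0, with the value in each cell. Irf7 with Ifit3 in liver, 0.89, is the single pair that passed after adjustment, and the liver values of Usp18, -0.31 to 0.29 over all 10 mice, are 0.132 to 0.697 without mottled 1 and slightly mottled 2.

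A member's levels in 2 tissues of the same mouse were compared next. Over 21 relations, 7 members by 3 pairs of tissues, the median Pearson r was 0.248, and none passed the permutation test after adjustment. It was 0.081 without heavily mottled 1 and 0.108 without slightly mottled 2. The median was 0.322 for liver with kidney, 0.458 for liver with brain and -0.048 for kidney with brain, and without mottled 1 and heavily mottled 1 it was 0.213, 0.119 and -0.19. With the mean of each mouse number removed the medians were 0.301, 0.226 and 0.03 in the same order. Within number 2 they were 0.312, 0.083 and -0.292, and within number 1 0.448, 0.055 and 0.361, so that the value of liver with brain did not hold within numbers. Rsad2 in kidney and brain had the highest r, 0.651, with rho of 0.748 (permutation p = 0.0346 and 0.0157, adjusted p = 0.403 and 0.33). Ifit3 had r of 0.579, 0.518 and 0.56 for liver with kidney, liver with brain and kidney with brain, and 0.254, 0.044 and 0.12 without the 2 extreme mice in each. Leaving out extreme mice narrows the range and can lower r by itself, so this drop cannot show what the values rest on. The r values of Ifit3 were 0.371, 0.226 and 0.301 with the mouse number removed, and 0.494, 0.613 and 0.482 without mottled 1 and heavily mottled 1. Oas1a had r of -0.501 between liver and brain.

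The series was made to look for genes that vary between mice in all tissues alike, and for this a moderated F-test of mouse was run across the 30 arrays with tissue as a covariate. It called 1 of 7 members, Ifit3, against 6.76% of probe sets. The mouse means of Ifit3 spanned 1.28 log2, highest in heavily mottled 1 and lowest in slightly mottled 2 (limma F = 4.50, adjusted p = 0.0334). With the mouse number as a block the adjusted p was 0.323, and 0.413% of probe sets were called. The call was also lost without slightly mottled 2 (0.0996), mottled 2 (0.0599), heavily mottled 1 (0.0951), pseudoagouti 1 (0.0762) or pseudoagouti 2 (0.0545), each left out alone. The 3 probe sets of Rsad2 disagreed, with adjusted p of 0.0505 at the strongest, 0.0153 at the second and 0.152 at the third, and of 0.134, 0.0578 and 0.527 with the block. The mouse means were highest in mottled 1 at the first and second and in heavily mottled 1 at the third. For the other 6 members heavily mottled 1 had the highest mouse mean. Of the 52 other interferon-induced genes 2 were called, the GTPase Gbp6 (adjusted p = 0.0425) and Isg20 (0.0255), and 0 with the block (limma adjusted p = 0.13 and 0.0695).

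An R-value above 1.5 is the criterion of the series for high variation between mice with low variation between tissues, and no formula comes with it. Computed as the mean SD over mice divided by the mean SD over tissues, R was 0.17 for Rsad2, 0.21 for Usp18, 0.31 for Ifit1, 0.32 for Irf7, 0.35 for Oasl2, 0.42 for Ifit3 and 0.47 for Oas1a, so 0 of 7 members were above 1.5, against 0.662% of probe sets.

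Mouse numbers 2 and 1 were compared because the main spread of the arrays ran with them. In limma 0 of 7 members were called in liver, kidney or brain, against 9.82%, 7.27% and 1.93% of probe sets. At an unadjusted p under 0.05 there were 1, 1 and 2 (Ifit3 in each tissue, and Oas1a in brain), against 25.7%, 28.8% and 21.9%. Ifit3 had lower means in number 2 mice in each tissue, 366.5 in number 2 and 571.3 in number 1 livers, 868.44 and 1149.3 in kidneys, and 190.38 and 291.4 in brains. The log2 differences, number 2 minus number 1, were -0.55 ± 0.24, -0.37 ± 0.17 and -0.57 ± 0.22 (SE), with limma adjusted p of 0.171, 0.172 and 0.163, and the numbers overlapped in each tissue. The 3 probe sets of Rsad2 disagreed in liver, with differences of -0.10 at the strongest, -0.01 at the second and -0.79 at the third.

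Genes with a pattern over mice most like the members were found by Pearson r with the mean of the 7 standardised members over 10 mice. In liver this was first Ifi27, an interferon-induced mitochondrial protein, with r of 0.927, and 0.816 without mottled 1 and heavily mottled 1. Its liver signal was 838.3 to 2898.1 with a median of 1146.7. Then came both probe sets of Adi1, an enzyme of methionine salvage (0.923 and 0.895), Mkln1 (0.914) and the microtubule-binding Map7 (0.902). Of these Mkln1 had a median liver signal of 85.8, below the median of every liver array. In brain the nearest genes were Anxa2, a membrane-binding annexin (0.889), Col4a4 (0.874), Gulo (0.874), the tight junction protein Ocln (0.871) and Bhmt2 (0.865), of which Col4a4, Gulo and Bhmt2 had median brain signals of 11.5, 20.5 and 2.15. In kidney they were 5031426D15Rik (0.919), Paqr7 (0.915), Lrrc10b (0.909), Btbd11 (0.863) and the glycine transporter Slc6a9 (0.857), of which the first 3 had median kidney signals of 21.95, 70.35 and 18.4.

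The other interferon-induced genes were set against the same mean. In liver 24 of 52 had r above 0.5 with the mean of the members, against 7.66% of probe sets, and the median r was 0.496. In brain there were 23 of 52, against 8.37%, with a median of 0.46. In kidney there were 6 of 52, against 4.02%, with a median of 0.107. Without mottled 1 and heavily mottled 1 the counts were 14 in liver (8.37% of probe sets), 15 in brain (5.47%) and 11 in kidney (6.14%), and with the mouse number removed 24 in liver (10.1%), 23 in brain (8.58%) and 7 in kidney (7.45%). The summed signal of 65 such genes was highest in heavily mottled 1 in liver (125700, median 97425) and in brain (21737, median 15357). In kidney it was highest in mottled 2 (55572), and heavily mottled 1, at 51535, was near the median of 51412. The brain of heavily mottled 1 also had the highest sums of interferon genes (1094), receptor and signalling genes (12706), nucleic acid sensors (13149) and endothelial markers (2999.1). It was the highest brain array for 18.8% of all probe sets. Its brain sums of lymphoid and myeloid, liver, kidney, brain and blood markers were not the highest.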

How the data were processed

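Total RNA of liver, kidney and brain was hybridised to 1 array per mouse and tissue. The authors deposited an intensity on a linear scale for each probe set, made with MAS5 per the submitters' processing notes (version not given), without detection calls. Arrays with the same coat class and number were taken as 1 mouse, per the labels, which do not state separate litters. Values were used as log2(signal + 16), and folds are ratios on that scale. Of 45101 probe sets 64 controls were left out, and 34945 had 1 symbol, 932 several and 9160 none in the platform annotation. Of the symbols 34741 matched a RefSeq gene. Probe sets whose highest tissue mean was at or above the median (251.77) were tested, 22519 in all.

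Models used limma 3.58.1 in R 4.3.3 (lmFit, eBayes with trend) over all tested probe sets, with Benjamini-Hochberg adjustment and a threshold of 0.05. Tissue fits had mouse as a block. Permutation tests were two-sided with 100000 resamples, in Python 3.11.15. Each gene was represented by its strongest probe set, by mean over the 30 arrays. Named genes were the members, from each list up to 4 per tissue contrast with the largest called difference and up to 3 with the smallest p for the liver slope, in each tissue the 5 probe sets most like the members, and a. Gbp6, Isg20 in the mouse effect, Cd3e and Alas2 were named after their values were seen. The members, lists and tests were chosen with earlier results of these data known. Same-numbered mice of different classes deviated together over 10 pairs of classes, with r of 0.13 to 0.39 between livers, 0.0084 to 0.53 between kidneys and -0.0087 to 0.5 between brains. Each liver pair was above 0.1, so the number pairs the livers, and the block on it changed no liver coat call.

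On simulated data with 200 changed probe sets the liver coat fit recovered 20.5% at a slope of 0.25 and 88.5% at 0.5, the mouse F-test 66.5% at an SD of 0.5, the slope difference 77% at 0.5, the number fit in liver 62.5% at a log2 difference of 1, and the liver minus kidney fit 100% at a log2 difference of 2. The simulated noise was independent between arrays, at the residual SD of a fit with tissue and mouse, so spread between mice was left out. That SD was 0.29 for Rsad2 and 0.34 for Irf7, against 0.53 and 0.46 over livers. For Usp18 and Oas1a it was 0.36 and 0.40, against 0.33 and 0.38. The recovered shares therefore need not hold for the liver coat fit of the data. Offsets, filters, normalisations, probe set choices, the blocks and omitted mice were the alternatives.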

Additional observations from a re-analysis of the deposited data

How the results depend on the processing

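The counts of members called between tissues (15 of 21 in the analysis reported, 14 to 16 with each mouse left out and under the other settings, and 15 with no replicate block), for the coat slopes, the slope difference and the mouse number (0 under each setting run) and with R above 1.5 (0 under each) stayed within 1.5 times. With each mouse left out the median correlations were 0.308 to 0.528 in liver, 0.077 to 0.223 in kidney, 0.284 to 0.523 in brain and 0.081 to 0.348 between tissues. In kidney the median was 0.241 and 0.246 with quantile normalisation over all arrays and within tissue and 0.018 as Spearman's rho, and between tissues it was 0.154 and 0.162 with the same normalisations and 0.101 without mottled 1 and heavily mottled 1 together. Among the counts the exception was the mouse effect, 1 member in the analysis reported. It was 0 with no filter, with quantile normalisation within tissue or over all arrays, without mottled 1 and heavily mottled 1 together, and with the replicate block on the mouse number, and 0 to 2 with each mouse left out, Rsad2 and Ifit3 being called without yellow 2. The adjusted p of Ifit3 was then 0.051, 0.0579, 0.0555, 0.0584 and 0.323, and 0.0205 to 0.0996 with each mouse left out. The replicate block on the mouse number changed no other call and gave median correlations of 0.517, 0.135 and 0.392 in liver, kidney and brain. The liver slope of Ifit1 reversed to -0.027 without mottled 1 and heavily mottled 1 together and ranged from -0.035 without yellow 2 to 0.0697 with each mouse left out, at -0.0052 without slightly mottled 2 and -0.026 without heavily mottled 1. The cause was not tested. In the simulation of the liver coat fit, whose noise left out spread between mice, 20.5% of probe sets with a slope of 0.25 were recovered. No detection calls were used, so whether low signals, such as brain signals near 100 or lower ones in kidney, lie above background was not tested, and folds over them depend on the offset.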
